A study of Rattus norvegicus with 4 samples.

Results

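The insulin-like growth factor (IGF) system was followed in the superficial zone (SFZ) and the deeper layers (deep AC) of articular cartilage from the proximal tibia of 2 adult Sprague-Dawley rats aged 10 weeks. The 10 genes were taken by symbol from a table of 31007 gene rows: the ligands Igf1 and Igf2, the receptors Igf1r and Igf2r, and the binding proteins Igfbp2 to Igfbp7. Each symbol stood on a single row. Both areas were cut from frozen sections by laser microdissection, the RNA was linearly amplified, and 1 library was made per zone and rat. The 4 libraries thus hold 2 within-rat differences for every gene. The labels name no treatment or genotype, and no difference between the libraries other than the zone and the animal.

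IGF1 and IGF2 are secreted growth factors that act through the IGF1 receptor, a tyrosine kinase whose signal passes through the insulin receptor substrates to PI3-kinase and AKT. The IGF2 receptor, which is also a receptor for mannose 6-phosphate, takes IGF2 up for breakdown. The IGF binding proteins hold most IGF outside cells, can block or prolong its action, and release it when proteases cut them. In cartilage IGF1 is known for stimulating chondrocytes to make proteoglycan and collagen.

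The deposited values are log2 values of TMM-scaled reads with each row's median over the 4 libraries removed, so they give differences between libraries and not levels. Values under 1 scaled read had been set to a floor of 1. At this floor an SFZ library had no whole read of the gene, written here as 0 reads, and a deep AC library had 0 or 1 read, because a single read there was worth less than 1. Some genes were counted in fractions of a read, which would also be set to the floor when under 1. Reads are fixed where a library sat at the floor. The test was limma over the 8772 genes that averaged 10 scaled reads or more, with terms for zone and rat and p-values adjusted by Benjamini-Hochberg. Of the 10 genes, 9 were tested. With 2 rats an exact sign-flip permutation test of a single gene cannot go below p = 0.5. The libraries held 3708616 to 3929568 reads in the rows whose reads could be recovered, and their total depth is unknown. Of the tested genes, 10% were at the floor in SFZ rat 1 and 9.2% in SFZ rat 2, against 2.15% and 4.06% in deep AC rat 1 and rat 2. Marker genes of the zones were looked up: 5 of 6 tested superficial zone markers were at least 2-fold higher in SFZ in both rats, against 6.42% of all tested genes. Of 9 tested chondrocyte matrix markers, 8 were at least 2-fold lower there, against 11.9%. The lists were chosen with earlier results of these data known, so this is not an independent check of the libraries. Of the chondrocyte markers Sox9 and Col9a3, and of the superficial zone markers Vit, were listed at 0 in all 4 libraries. So were 20218 of all 31007 rows.

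The zones differed most in Igfbp5, which had 4948 and 2328.5 reads in the SFZ libraries, 238 in deep AC rat 1 and only the floor, 0 or 1 read, in that of rat 2. Igfbp5 encodes a binding protein that also binds to extracellular matrix. None of the other 8 tested genes was 2-fold apart with one sign in both rats. Igf2r was a little higher in SFZ in both rats, and the remaining 7 had opposite signs in the 2 rats. The share of all tested genes with opposite signs was not counted, so it is not known whether 7 of 9 is unusual. No member passed the test (limma, 0 of 9 at an adjusted p under 0.05 and 1 of 9, Igfbp5, at an unadjusted p under 0.05). Over all 8772 genes 0.0114% were called and 9.87% had an unadjusted p under 0.05.

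**Figure D1:**
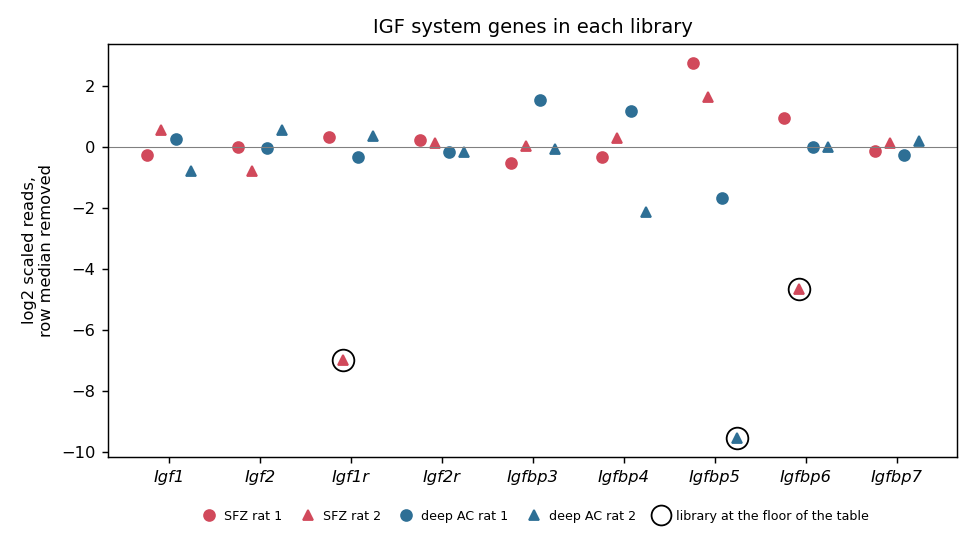
Deposited log2 values (log2 scaled reads less the row's median, vertical axis) of the 9 tested IGF genes in each of the 4 libraries. Circles are rat 1 and triangles rat 2, red is SFZ and blue deep AC, and a ring marks a library at the floor; the rings are on Igf1r and Igfbp6 in SFZ rat 2 and on Igfbp5 in deep AC rat 2.

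Of the ligands, Igf1, which encodes the growth factor that gives the family its name (chromosome 7, 24531669 to 24605742 of rn4, plus strand), had values of -0.27 in SFZ rat 1, 0.57 in SFZ rat 2; the deep AC values were 0.27 in rat 1 and -0.77 in rat 2. The highest and the next to lowest library were both SFZ, so the zones overlapped. SFZ minus deep AC was -0.54 in rat 1 and 1.34 in rat 2, a mean of 0.40 ± 1.33 on the log2 scale (SD, n = 2 rats; SE 0.55; limma adjusted p = 0.84). The gap between the 2 deep AC libraries, 1.04, was larger than the mean difference between zones. Without SFZ rat 2 or without deep AC rat 2 the sign of the mean turned, to -0.02 and -0.12. Here and below, a fit with a library left out had no term for rat. Its mean is the difference between zone means and not a mean of within-rat differences.

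Igf2, the other ligand, which is best known as a fetal growth factor and is expressed from the paternal allele (chromosome 1, 202906623 to 202915162, minus strand), had values of 0.02 and -0.78 in SFZ rat 1 and rat 2 and of -0.02 and 0.57 in deep AC. In rat 1 the zones were almost level, at a difference of 0.04, and in rat 2 SFZ was lower, at -1.35. The mean of -0.66 ± 0.98 (SD, n = 2 rats) had an SE of 0.48 (limma adjusted p = 0.687). It was -0.26 without SFZ rat 2 and -0.36 without deep AC rat 2, and -1.06 without SFZ rat 1. The zones overlapped, with SFZ rat 2 the lowest library and deep AC rat 2 the highest. The row of the microRNA gene Mir483, which lies inside Igf2 on the same strand, was listed at 0 in all 4 libraries.

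Of the receptors, Igf2r (chromosome 1, 42253273 to 42341646, plus strand) varied least. Its values were 0.25 and 0.14 in SFZ rat 1 and rat 2 and -0.16 and -0.14 in deep AC, so both SFZ libraries stood above both deep AC libraries. The differences were 0.41 and 0.28, with a mean of 0.34 ± 0.09 (SD, n = 2 rats; SE 0.38; limma adjusted p = 0.789), which is 1.27-fold. Igf2r was the only one of the 9 genes whose mean difference between zones was larger than both gaps between rats within a zone, which were 0.11 in SFZ and 0.02 in deep AC. Of all tested genes 30.5% met that description, and 72.6% had a mean difference at least as large. Under the 12 alternatives its mean ran from 0.29 to 0.40.

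Igf1r, the receptor that carries the IGF signal (chromosome 1, 122704974 to 122990002, plus strand), had 154 reads in SFZ rat 1 and 0 in SFZ rat 2, beside 101 and 175 in the deep AC libraries. A single library stood apart: SFZ rat 2 was at the floor, while SFZ rat 1 lay between the 2 deep AC libraries. On the log2 scale the values were 0.32, -6.98, -0.32 and 0.36 in the same order. In rat 1 SFZ was higher, at 0.65 or 1.56-fold. In rat 2 it was at least 53.8-fold lower, a bound set with 3 counts in the library with 0 reads, which covers counting error only. The mean of -3.34 ± 5.64 (SD, n = 2 rats; SE 2.41; limma adjusted p = 0.68) rests on SFZ rat 2, and without that library it was 0.30. Of 5188 genes with at least 100 reads (recovered, or assumed where the level is not known) in each of the other 3 libraries, a limit chosen after the values of Igf1r had been seen, 31 were at the floor in SFZ rat 2 (0.598%); the like count for SFZ rat 1 was 27 of 5242 (0.515%).

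**Figure D2:**
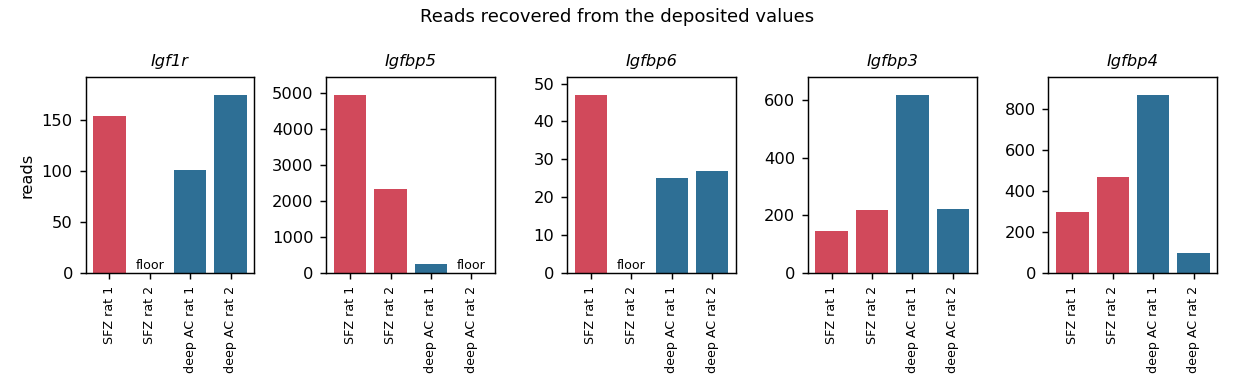
Reads of 5 IGF genes in each library (vertical axes, separate scales that start at 0), red for SFZ and blue for deep AC, as recovered from the deposited values. For Igf1r, Igfbp5 and Igfbp6 a library at the floor fixes the reads; for Igfbp3 and Igfbp4 the bars are the smallest whole reads that give the deposited differences, and the true reads may be a common multiple of them.

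The binding proteins differed among themselves more than the ligands did. Igfbp5 (chromosome 9, 72003637 to 72016263, minus strand) had values of 2.77 and 1.65 in SFZ rat 1 and rat 2 and of -1.65 and -9.54 in deep AC. Both SFZ libraries were above both deep AC libraries, as for 19.6% of tested genes. SFZ minus deep AC was 4.41 in rat 1, which is 21.3-fold, and 11.19 in rat 2, where it was taken against the floor. No fold is given for rat 2, because the floor in deep AC holds both 0 and 1 read. Igfbp5 was the 1 member of 9 at least 2-fold higher in SFZ in both rats, against 6.42% of all tested genes, and 0 of 9 were at least 2-fold lower in both rats, against 11.9%. Over both directions this was 1 of 9 members beside 18.3% of all tested genes. These shares of all genes depend on the scaling: 563 genes were 2-fold higher and 1044 lower, and 924 and 697 under quantile normalization.

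The mean difference of Igfbp5, 7.80 ± 4.79 (SD, n = 2 rats; SE 1.63), did not pass the test (limma adjusted p = 0.279). Its size depended on deep AC rat 2: without that library the mean was 3.86, and without deep AC rat 1 it was 11.75. With 10 scaled reads added before the log2 the mean was 6.05 (limma adjusted p = 0.0729). Under quantile normalization it was 7.78 and passed (limma adjusted p = 1.37e-08, in a fit whose prior had 69 degrees of freedom against 4.55 otherwise, beside 1 residual degree of freedom). Its adjusted p over all 12 alternatives ran from 1.37e-08 to 0.576.

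The gap of Igfbp5 between the 2 deep AC libraries, 7.89, was as large as its mean difference between zones. Of 4957 genes with at least 100 reads in each of the other 3 libraries, a limit chosen after the values were seen, deep AC rat 2 was at the floor for Igfbp5 alone (0.0202%), and the like count for deep AC rat 1 was 0 of 4897. With at least 25 reads in the other 3 libraries it was 11 of 6217 genes for deep AC rat 2 (0.177%) and 6 of 6170 for deep AC rat 1 (0.0972%). The 3 tested genes whose 4 values lay nearest to those of Igfbp5, by Euclidean distance over the 4 libraries, were Sectm1b at 1.91, Ano6 at 2.33 and Nkx6-1 at 2.59. Ano6 encodes a phospholipid scramblase and Nkx6-1 a homeobox transcription factor known from pancreatic beta cells. All 3 were at the floor in deep AC rat 2. Sectm1b had 896 and 1057 reads in SFZ and 64 in deep AC rat 1, and Ano6 had 546 and 512 against 86.

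Igfbp2, a binding protein gene that lies tail to tail with Igfbp5 (chromosome 9, 71966877 to 71994208, plus strand), was listed at 0 in all 4 libraries and was not tested. The gap between the 2 genes is 9428 bases, with no other row of the table between them. The table does not show whether reads of Igfbp2 were lacking, too few or left uncounted. The same layout is found on chromosome 14, where Igfbp1, also listed at 0 in all 4 libraries, lies 3863 bases from Igfbp3. In both pairs a gene with reads stood beside one listed at 0. Of all 31007 rows 20218 were listed at 0 in all 4 libraries. How often such pairs occur was not counted.

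Igfbp3, whose protein is the main carrier of IGF in blood (chromosome 14, 87959153 to 87967171, minus strand), had values of -0.53 and 0.05 in SFZ rat 1 and rat 2 and of 1.54 and -0.05 in deep AC. The smallest whole reads that give these values are 144 and 219 in SFZ and 619 and 222 in deep AC. Deep AC rat 1 stood above the other 3 libraries, and SFZ rat 2 and deep AC rat 2 were nearly level. The difference was -2.07 in rat 1, 4.19-fold lower in SFZ, and 0.10 in rat 2, with a mean of -0.98 ± 1.53 (SD, n = 2 rats; SE 0.87; limma adjusted p = 0.73). Without deep AC rat 1 the mean was -0.19.

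Igfbp4, a binding protein known as an inhibitor of IGF action (chromosome 10, 87822429 to 87834315, plus strand), went opposite ways in the 2 rats. Its values were -0.31 and 0.31 in SFZ and 1.20 and -2.11 in deep AC, and the smallest whole reads that give them are 300.0 and 468 in SFZ and 871 and 95 in deep AC. The 2 deep AC libraries were thus the highest and the lowest of the 4, a gap of 3.31 that 5.1% of tested genes reached. SFZ was 2.83-fold lower in rat 1 and 5.34-fold higher in rat 2, a log2 difference of 2.42. Igfbp4 was the 1 member of 9 at least 2-fold apart in opposite directions, as were 11.1% of all tested genes. Its mean of 0.46 ± 2.77 (SD, n = 2 rats) had an SE of 1.05 (limma adjusted p = 0.917), and turned to -1.20 without deep AC rat 2.

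Igfbp6, whose protein binds IGF2 more tightly than IGF1 (chromosome 7, 140885388 to 140890027, plus strand), had 47 reads in SFZ rat 1 and 0 in SFZ rat 2, beside 25 and 27 in the deep AC libraries. Both deep AC libraries were level, and the SFZ libraries were the highest and the lowest. The difference was 0.95 in rat 1, 1.93-fold higher in SFZ, while in rat 2 SFZ was at least 8.3-fold lower, set against 3 counts. The mean of -1.85 ± 3.95 (SD, n = 2 rats) did not pass (SE 2.36; limma adjusted p = 0.825). It turned to 0.95 without SFZ rat 2 and to 0.80 under quantile normalization. Of 6551 genes with at least 25 reads in each of the other 3 libraries, a limit also chosen after the values were seen, 122 were at the floor in SFZ rat 2 (1.86%).

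Igfbp7, a more distant relative that binds IGF weakly (chromosome 14, 33010198 to 33070054, plus strand), was nearly level in all 4 libraries. Its values were -0.13 and 0.13 in SFZ rat 1 and rat 2 and -0.26 and 0.21 in deep AC. The differences were 0.14 and -0.08, with a mean of 0.03 ± 0.16 (SD, n = 2 rats; SE 0.38; limma adjusted p = 0.991). Its range overlaps that of Polr2b, an RNA polymerase subunit gene on the other strand. Reads from any stretch that the 2 genes share cannot be told apart without strand. It also overlaps LOC688417, which was listed at 0 in all 4 libraries. Igfbp7 and Igf2r were the 2 members of 9 under 2-fold apart in both rats, against 33.8% of all tested genes.

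**Figure D3:**
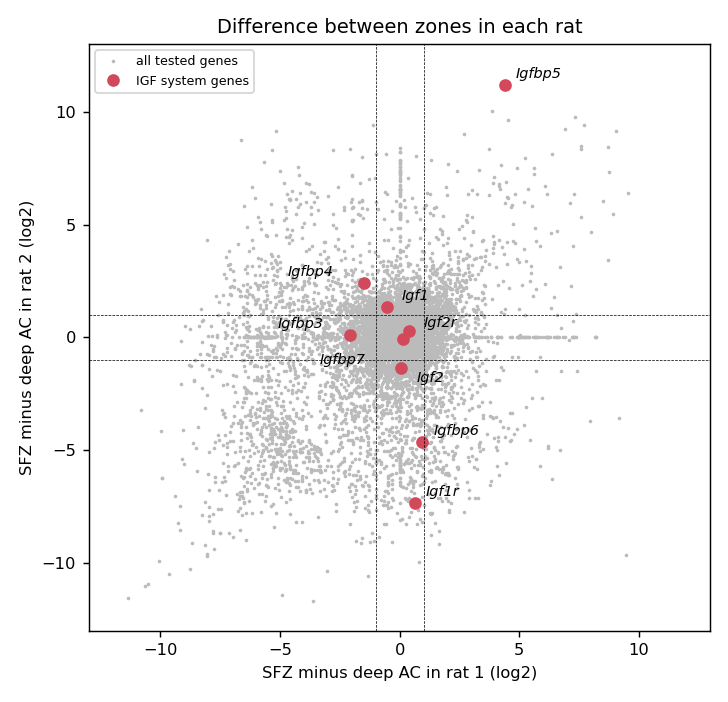
Difference SFZ minus deep AC (log2) in rat 1 (horizontal axis) and rat 2 (vertical axis) for all 8772 tested genes in grey and the 9 IGF genes in red; dashed lines mark 2-fold. Igfbp5 lies in the upper right at 4.41 and 11.19. Igf1r and Igfbp6 lie at 0.65 and 0.95 in rat 1, under the 2-fold line, and far down in rat 2.

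In rat 1 3 of the 9 members were at least 2-fold apart in either direction, all of them binding proteins, against 48.1% of all tested genes, and in rat 2 6 of 9 were, against 47.5%. The difference between the rats in these counts was not tested. The median difference of the 9 was 0.14 in rat 1 and 0.10 in rat 2, against -0.13 and 0.00 over all tested genes. The median gap between the 2 SFZ libraries was 0.80 for the members and 0.90 for all tested genes, and between the 2 deep AC libraries it was 0.68 and 0.52. No single library set the pattern of all members: the lowest value was in SFZ rat 2 for 3 genes, in deep AC rat 2 for 3, in deep AC rat 1 for 2 and in SFZ rat 1 for 1. In 2 members, Igf2r and Igfbp5, both SFZ libraries were above both deep AC libraries, and in 0 members both were below, against 19.6% and 22.9% of all tested genes.

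Around these genes, 6 lists of the wider pathway held 82 genes, of which 78 were in the table and 53 were tested. Of the 78, 14 were listed at 0 in all 4 libraries, beside 20218 of all 31007 rows. Of the 53, 4 were at least 2-fold higher in SFZ in both rats and 8 at least 2-fold lower, beside 6.42% and 11.9% of all tested genes; under quantile normalization 8 were higher and 4 lower. None of the 53 passed the test (limma, 0 at an adjusted p under 0.05). At an unadjusted p under 0.05 there were 8 (limma), against 9.87% of all tested genes. The median differences of the 53 were -0.37 in rat 1 and 0.03 in rat 2. The counts of each list below are to be read beside the same shares of all tested genes.

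Among the proteases that cut binding proteins and the inhibitors of those proteases, 0 of 8 tested genes were 2-fold higher in both rats and 2 were lower. Mmp3, a matrix metalloproteinase gene, stood at -10.84 and -3.21 (limma adjusted p = 0.327). Stc2, which encodes stanniocalcin 2, an inhibitor of the protease PAPP-A, stood at -1.96 and -4.74 (0.556). Pappa encodes PAPP-A itself, which cuts IGFBP4 and IGFBP5, and is named here after its values had been seen. For Pappa SFZ held 102 and 135 reads, and deep AC held 83 in rat 1 and only the floor in rat 2. In that library 3 members were at their lowest (Igf1, Igfbp4 and Igfbp5) and 3 at their highest (Igf2, Igf1r and Igfbp7). A link between Pappa and the members was not tested. Stc1, which encodes the related inhibitor stanniocalcin 1, differed by rat, with 1 and 572 reads in SFZ while deep AC held 37 in rat 1 and only the floor in rat 2. Htra1, a serine protease gene, was just under the 2-fold limit at 0.99 and 1.19.

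Downstream of the IGF1 receptor, 3 of 23 tested genes were 2-fold higher in both rats and 2 were lower, with medians of 0.17 and -0.05. Irs2, an insulin receptor substrate gene, stood at 2.99 and 1.84 (limma adjusted p = 0.488). Tsc2, which encodes the mTOR inhibitor tuberin, stood at 1.43 and 1.80 (0.46), and Foxo4, a transcription factor gene held in check by AKT, had a mean difference of 1.82 (0.723). The 2 lower genes had few reads. Akt1, a kinase gene of this pathway, had 1 and 0 reads in SFZ and 25 and 43 in deep AC, while Pik3cb, a PI3-kinase subunit gene, had 0 and 0 in SFZ against 46 and 6.

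Of the other lists, mannose 6-phosphate sorting, the route that Igf2r serves, had 3 of 9 tested genes 2-fold lower in SFZ in both rats and 0 higher. Over all tested genes 11.9% were lower and 6.42% higher. Nagpa, which encodes the enzyme that uncovers the mannose 6-phosphate tag, stood at -5.49 and -2.69 (limma adjusted p = 0.572). It had few reads, 1 and 0 in SFZ and 46 and 7 in deep AC. Vps26a, a retromer subunit gene, stood at -5.45 and -1.17 (limma adjusted p = 0.639), with 0 and 67 reads in SFZ and 44 and 164 in deep AC. Gga2, a sorting adaptor gene, stood at -2.52 and -1.15 (limma adjusted p = 0.451). M6pr, the other mannose 6-phosphate receptor gene, stood at 0.63 and 0.19. Among imprinted growth genes, 1 of 5 was higher and 1 lower. H19, a noncoding RNA gene 81021 bases from Igf2 on the same strand, stood at -3.04 and -1.97 (limma adjusted p = 0.199), where Igf2 stood at 0.04 and -1.35. Dlk1, which encodes a transmembrane protein of the Notch ligand family, had 36 and 55 reads in SFZ, while deep AC held 13 in rat 1 and only the floor in rat 2.

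In the growth hormone list 0 of 5 tested genes were 2-fold apart with one sign in both rats and 2 were so with opposite signs. Over all tested genes 18.3% were apart with one sign and 11.1% with opposite signs. Ghr, the growth hormone receptor gene, stood at -0.75 and -0.63. Stat5b, a transcription factor gene of that receptor's signal, had 0 and 127 reads in SFZ and 35 and 21 in deep AC. Among other genes of the IGF family, 0 of 4 tested were 2-fold apart with one sign in both rats and 1 with opposite signs. Insr, the insulin receptor gene, stood at -1.68 and 1.48, and Ins1, Ins2, Igfbp1, Igfbpl1 and Igf2bp3 were listed at 0 in all 4 libraries.

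**Figure D4:**
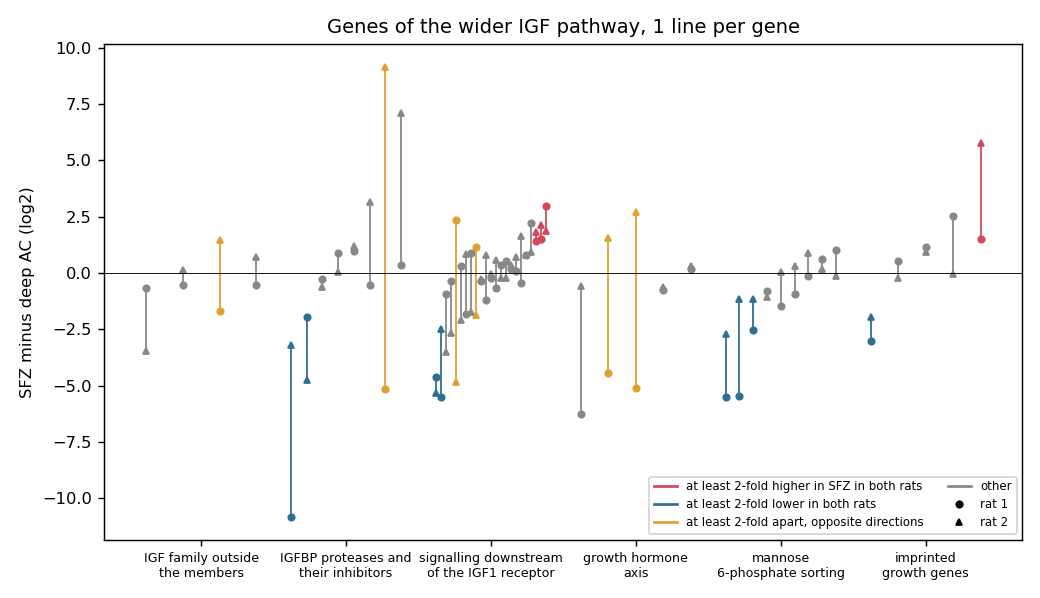
Difference SFZ minus deep AC (log2, vertical axis) of the tested genes in 6 lists of the wider IGF pathway, 1 line per gene from rat 1 (circle) to rat 2 (triangle). Red and blue lines are genes at least 2-fold higher or lower in SFZ in both rats, orange lines genes at least 2-fold apart in opposite directions; long lines mark genes whose difference was not alike in the 2 rats.

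In whole tissue areas, fewer cells of a type and less RNA per cell cannot be told apart. The marker counts below are to be read beside the shares of all tested genes, 6.42% higher and 11.9% lower. Markers of synovial and tendon fibroblasts, cells that also express IGF binding proteins, went both ways: of 9 tested, 2 were at least 2-fold higher in SFZ in both rats (Col1a1 and Col15a1) and 2 lower (Dpt and Scx). The summed reads of the 6 with a recovered level were 2563 and 3387 in SFZ and 1642 and 3076 in deep AC, and Thy1 and Cd34 were listed at 0 in all 4 libraries. Of 4 tested markers of mural and smooth muscle cells, 2 were higher (Des and Mcam) and 1 lower (Myh11), with summed reads of 67 and 74 in SFZ and 50 and 48 in deep AC over 2 markers, and Rgs5 was listed at 0. Of 7 tested macrophage markers, 0 were higher in both rats and 1, Ptprc, was lower, with summed reads of 3831 and 3007 in SFZ and 4724 and 2704 in deep AC. C1qa and C1qb had 119 and 91 reads in SFZ rat 1 and were at the floor in every other library. Cd68 went opposite ways, with 0 and 68 reads in SFZ and 34 and 21 in deep AC. In the sums of all lists, markers without a library at the floor enter with their smallest whole reads, and the true reads may be a common multiple. Of 5 tested osteoblast and osteocyte markers, 4 were lower in SFZ and 0 higher, and Sp7, Sost and Runx2 were listed at 0. Summed reads over the 3 markers with a recovered level were 287 and 1 in SFZ against 745 and 109 in deep AC. Most of the SFZ rat 1 sum came from Phex, the marker that was not lower. Phex had 286 and 0 reads in SFZ and 187 and 41 in deep AC. No tested marker of endothelial cells, adipocytes, erythroid cells or skeletal muscle was 2-fold apart with one sign in both rats. Ckm of skeletal muscle had 96 reads in SFZ rat 2 and was at the floor in every other library. Hbb-b1 of erythroid cells had 201 reads in SFZ rat 2, the floor in SFZ rat 1, and 65.5 and 3 reads in deep AC. The part of these cells in the values of Igfbp5 and the other members was not tested.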

How the data were processed

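RNA-seq was made from 4 laser-microdissected areas, SFZ and deep AC of 2 rats. Per the labels' protocols, RNA was linearly amplified before library preparation. The deposited values are log2 values that the authors scaled by TMM, per the title of the table; the submitters' processing notes name rn4. Aligner, counter and strand use: not given in the sources used here. Every row's median was within 9.7e-07 of 0. From rows above 0 in a single library, 1 read was worth 1.022 and 1.001 scaled reads in SFZ and 0.9963 and 0.9227 in deep AC; 93.98% to 96.75% of those rows were whole to a relative tolerance of 1e-05. Levels came from the floor in 3414 rows and from a search for whole reads summing to at most 20000 in 5363. In the other 2012 rows, among them Igf1, Igf2, Igf2r and Igfbp7, the level is not known. An assumed level (a mean of 5000 scaled reads for most) served there for the filter and the trend of the spread. It also entered the values under quantile normalization and with reads added, and the counts of genes above a limit of reads. Amplified reads are not independent molecules, so bounds cover counting error only.

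Tests used limma 3.58.1 under R 4.3.3 on the log2 values as deposited (lmFit with zone and rat, eBayes with the level as trend, two-sided, Benjamini-Hochberg). The steps were also run on simulated whole reads, without differences between rats or fractions of a read. That run cannot show how they perform on these data. The titles tie both zones to 1 animal, so the rat was kept as a block; the correlation across genes of the rat difference in SFZ with that in deep AC was 0.05. The single gene called over all 8772 is not a member, and no gene was called among genes of known level alone. All 10 members are named; of the wider lists, genes 2-fold or more apart with one sign in both rats are named, up to 4 per direction, and others were chosen after their values were seen. The members and lists were chosen with earlier results of these data known. Alternatives were other scalings, filters, amounts added before the log2, fits and left-out libraries. The fits with a left-out library had no term for rat, so their means are differences between zone means.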

Additional observations from a re-analysis of the deposited data

How the results depend on the processing

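Without the replicate block, Igfbp5 kept its mean of 7.80 (limma adjusted p = 0.343), and the 1 gene called over all genes was the same with and without the block. Quantile normalization moved the limma calls from 0 to 133 higher and from 1 to 146 lower, the genes 2-fold higher in both rats from 563 to 924 and those 2-fold lower from 1044 to 697, and the wider pathway genes to 8 higher and 4 lower. It took Igfbp5 past the threshold at 7.78 and reversed Igfbp6 to 0.80 and Igfbp7 to -0.03. It moved the median difference of all genes from -0.13 to 0.02 in rat 1. limma called 4 higher and 6 lower with 1 scaled read added, 11 and 11 with 10 added, and 0 lower with an untrended prior or on genes of known level alone. At a minimum mean of 100 scaled reads, which leaves Igfbp6 untested, 375 genes were 2-fold lower, 1240 had SFZ lower without overlap, and the wider lists had 2 higher and 3 lower. At 1.5-fold 993 genes were higher, and the wider lists had 8 higher and 13 lower; at 4-fold 178 and 659 genes were higher and lower, and the wider lists had 0 and 4. With a gap of at least 1 between the zones, 388 genes did not overlap with SFZ higher and 882 with SFZ lower. Igfbp5 remained the 1 member 2-fold higher in both rats under quantile normalization, median centring, the other minimum levels and the reads added, and the 1 member past the 1.5-fold and 4-fold limits.

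Leaving out a library moved the limma calls to 0 to 70 lower; the lone library of a zone is then assumed to vary like the others. With a single rat, 1627 to 1958 genes were 2-fold higher and 2208 to 2596 lower, 1 to 3 members were higher and 2 to 3 lower, and 10 to 12 wider pathway genes were higher and 16 lower. The mean ran from -0.12 to 0.92 for Igf1, from -6.99 to 0.30 for Igf1r, from -1.06 to -0.26 for Igf2, from -1.78 to -0.19 for Igfbp3, from -1.20 to 2.11 for Igfbp4, from -4.64 to 0.95 for Igfbp6 and from -0.21 to 0.26 for Igfbp7. For the other moves the cause was not tested. The 4 libraries and the floor limit what can be seen: a difference taken against 0 or 1 read has no fixed size.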
